A study of Homo sapiens with 12 samples.

Results

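The 9 genes described here are targets of the tumor suppressor p53: MDM2, FAS, GADD45A, ZMAT3, TP53I3, SESN1, FDXR, RRM2B and XPC. They were taken by gene symbol from the 20003 genes used, in a choice made with earlier results of these data known, and all 9 had a value in every sample. The mRNA-seq covered 2 human leukemia cell lines, with 3 samples in each of 4 groups and 12 samples in all. NB4 cells come from an acute promyelocytic leukemia and carry the fusion gene PML-RARα, and Kasumi-1 cells come from an acute myeloid leukemia with the fusion AML1-ETO. The controls of both lines received DMSO, and the treated cells received 1 μM OGP46, a compound studied for inducing differentiation of these cells. The labels and the study's methods give an incubation of 48 h, whereas one of its figure legends gives a longer one. Each group is a single established line. For its mRNA-seq figure the study speaks of 3 independent experiments, but the labels do not tie these samples to separate cultures. A p-value therefore measures the spread between these samples, part of which may be technical.

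p53 is a transcription factor that is held at a low level by MDM2, a ubiquitin ligase that marks it for degradation. After DNA damage, nutrient stress or oncogene activity p53 escapes MDM2, binds its response elements near target genes and raises their transcription. MDM2 is itself such a target, which closes a negative feedback loop. The other targets arrest the cell cycle, repair DNA, adjust metabolism or start cell death. In leukemia cells p53 can be lost or mutated, and many of its targets also respond to differentiation signals and to other stress pathways.

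The response element is made of 2 half-sites of 10 bases each, placed side by side. It was searched for in the 250 bases before each RefSeq start of transcription (GRCh38.p14), with the core of both half-sites intact and at most 3 letters off in all. The motif is palindromic, so a site matches it on both strands, and windows of one gene can overlap. Of 35116 windows, 0.356% held such a site. Windows were at hand for 7 of the 9 genes, 16 windows in all, and 2 of these genes held a site, FAS and SESN1. Both stretches are printed from 5′ to 3′ on the strand of the gene, with the 20 bases of the site in capitals, because they show the kind of sequence that p53 recognises, next to 2 of the members:
FAS, chr10:88991304-88991333, + strand: ctcctGGACAAGCCCTGACAAGCCAagcca
SESN1, chr6:109009013-109009042, - strand: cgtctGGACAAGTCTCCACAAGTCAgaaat
The FAS site was 2 letters off the motif and began 122 bases before a start of transcription, in a stretch that other transcripts of FAS and of its antisense neighbor ACTA2 hold as exon (GENCODE release 29). The SESN1 site was 3 letters off and began 49 bases before a start, inside the gene but outside any annotated exon. With a spacer of up to 13 bases between the half-sites, 3.75% of all windows held a site, and the members with one were still these 2. A match describes letters in the window, and binding of p53 was not measured.

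Expression was deposited as FPKM, which scale the sequenced fragments of a gene by its exon length and by the size of the library, so that levels of different genes can be set side by side per length. FPKM hold no read counts, the depth of the samples is therefore unknown, and the error given is the SD of 3 samples. Summed over all genes, the values came to 248207 to 310262 FPKM per sample. Markers that define Kasumi-1 cells (RUNX1T1, POU4F1, TRH, CD34 and KIT) summed to between 263 and 299 FPKM in the Kasumi-1 controls and to between 0.563 and 3.6 FPKM in the NB4 controls. The sample at 3.6 FPKM was NB4 control 3, which had CD34 at 1.31 FPKM and KIT at 1.22 FPKM, above the other NB4 samples. The 6 genes listed for promyelocytic cells, which are HGF and 5 granule protein genes with MPO among them, all reached a mean of 1 FPKM in NB4 controls, and 5 of 6 did with OGP46. Their sum was higher in Kasumi-1 controls (9630 to 11900 FPKM) than in NB4 controls (2610 to 3950 FPKM), so this list does not mark NB4 cells against Kasumi-1 cells. With OGP46 the sum was 1590 to 2820 FPKM in NB4 and 7780 to 8980 FPKM in Kasumi-1 cells. Of the markers of T cells, B cells, erythroid cells and fibroblasts, none but CD3D in NB4 cells and CD79A in both lines reached a group mean of 1 FPKM. CD3D lay between 13.5 and 20.4 FPKM in NB4 controls and between 22.5 and 34.6 FPKM with OGP46. The part of these marker shifts in the results was not tested.

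In the control cells some of the 9 genes differed in level between the lines. FAS and RRM2B were higher in NB4 cells, GADD45A, ZMAT3 and TP53I3 were higher in Kasumi-1 cells, and MDM2, SESN1, FDXR and XPC lay within a 1.49-fold difference. In NB4 controls the order of the mean levels, from the top, was RRM2B, MDM2, XPC, SESN1, GADD45A, FAS, FDXR, ZMAT3 and TP53I3. RRM2B and MDM2, XPC and SESN1, and FAS, FDXR and ZMAT3 were neighbors whose samples overlapped. In Kasumi-1 controls the order was GADD45A, MDM2, XPC, RRM2B, SESN1, TP53I3, ZMAT3, FDXR and FAS, where RRM2B and SESN1 overlapped, and so did TP53I3 and ZMAT3. The controls were compared by limma on log2(FPKM + 0.1) over 12302 genes, and a call required a Benjamini-Hochberg adjusted p under 0.05 together with a log2 difference of 0.58 or more, which is 1.49-fold. By this rule 2 of the 9 members were higher and 3 lower in NB4 cells. The same control samples serve in the comparisons with OGP46. Of all genes tested, 22.7% were higher and 29.7% lower by the same rule, so both shares of the members lie near the background.

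FAS encodes a death receptor on the cell surface that starts apoptosis when its ligand binds (chr10:88990582-89015785, + strand, hg38). It stood at 1.17, 1.00 and 1.00 FPKM in NB4 controls 1 to 3 and at 0.0213, 0.0178 and 0.0289 FPKM in Kasumi-1 controls. Every NB4 sample lay far above every Kasumi-1 sample, with means of 1.06 ± 0.0941 and 0.0227 ± 0.00566 FPKM (SD, n = 3). The log2 difference of 3.24 ± 0.17 (standard error, SE, adjusted p = 3.67e-07) depends on the pseudocount, because FAS was close to 0 in Kasumi-1 cells, and it was 1.01 with a pseudocount of 1 and 5.04 with 0.01. TP53I3, a quinone oxidoreductase of the p53 response that produces reactive oxygen species, had the opposite pattern (chr2:24077433-24085861, - strand). Its Kasumi-1 controls were at 2.85, 2.71 and 2.53 FPKM, while NB4 controls 1 and 2 were listed at 0 and NB4 control 3 at 0.0881 FPKM. The log2 difference was −4.50 ± 0.25 (SE, adjusted p = 5.57e-07) and ranged from −1.85 with a pseudocount of 1 to −6.98 with 0.01. The only NB4 control with a TP53I3 value above 0 was the one in which Kasumi-1 markers were highest, and without that sample the log2 difference was −4.80. What part such signal has in the TP53I3 value of this sample was not tested.

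GADD45A, a small nuclear protein that slows the cell cycle and takes part in DNA repair, lies on chromosome 1 (chr1:67685061-67688338, + strand). Its levels were 3.43, 4.13 and 2.82 FPKM in NB4 controls 1 to 3 and 13.6, 14.8 and 11.2 FPKM in Kasumi-1 controls. The groups were well apart, by a log2 difference of −1.91 ± 0.15 (SE, adjusted p = 4.71e-06). ZMAT3, an RNA-binding zinc finger protein (chr3:179017223-179072279, - strand), was at 1.02, 0.900 and 0.766 FPKM in NB4 controls and at 1.73, 1.59 and 2.59 FPKM in Kasumi-1 controls, again without overlap (log2 difference −1.04 ± 0.20, SE, adjusted p = 0.00116). RRM2B, the p53-inducible small subunit of ribonucleotide reductase that supplies DNA precursors to resting cells, went the other way, at 8.003, 8.17 and 8.09 FPKM in NB4 controls against 4.11, 3.91 and 3.98 FPKM in Kasumi-1 controls. Its log2 difference was 1.00 ± 0.08 (SE, adjusted p = 4.98e-06), with the smallest spread of the 9 genes within both groups relative to the mean, as the plot of levels by sample shows.

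MDM2 (chr12:68808176-68850686, + strand) had 8.20, 7.09 and 7.63 FPKM in NB4 controls and 7.09, 7.31 and 7.56 FPKM in Kasumi-1 controls, and these values overlapped. Its log2 difference was 0.06, with a 95% interval from −0.14 to 0.26. FDXR, ferredoxin reductase of the mitochondrial electron transfer chain for steroid and iron-sulfur cluster synthesis, differed by 0.06 (interval −0.33 to 0.44; chr17:74862497-74873031, - strand). SESN1, a stress sensor that restrains the growth kinase complex mTORC1, was higher in NB4 controls by a log2 difference of 0.33 (adjusted p = 0.0223), and XPC, which recognises bulky DNA lesions for nucleotide excision repair, had a log2 difference of −0.27 (adjusted p = 0.0370). Both passed the adjusted p and fell short of the minimum difference. The median of all genes in this comparison was −0.10 as deposited, and 0.10 after scaling to TPM, and none of the 5 called members changed direction under any scaling. Exons of MDM2, FAS, TP53I3, SESN1 and XPC overlap those of neighbors, among them CPM, ACTA2, FAM228B and LSM3 on the opposite strand. The libraries were stranded, but whether counting used the strand is not stated, so these levels carry that uncertainty.

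**Figure D1:**
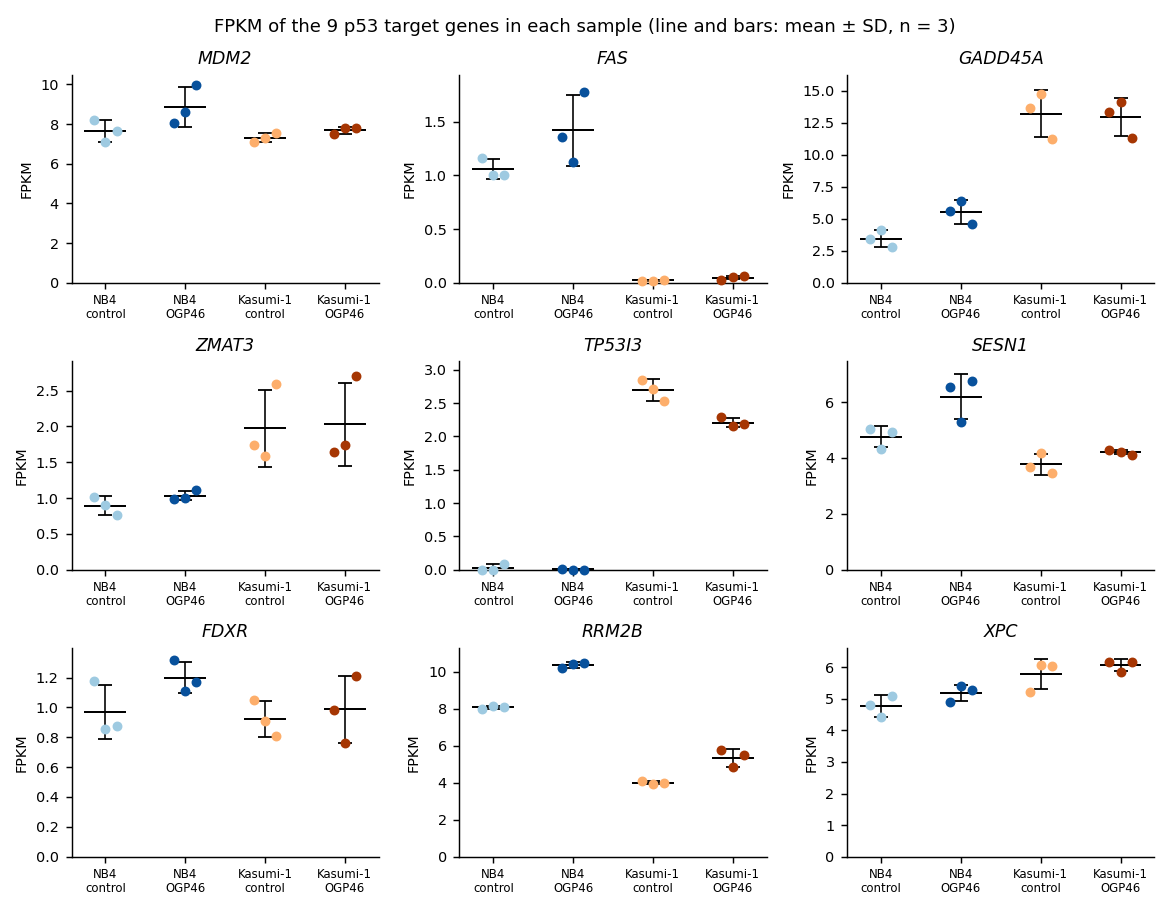
FPKM of each of the 9 genes (y axis, from 0) in the 12 samples, with 1 panel per gene and samples 1 to 3 of a group from left to right; lines and bars are mean ± SD, n = 3. FAS is near 0 in Kasumi-1 cells and TP53I3 near 0 in NB4 cells, and the 3 OGP46 samples lie above the 3 controls for GADD45A, SESN1 and RRM2B in NB4 cells and for RRM2B in Kasumi-1 cells.

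**Figure D2:**
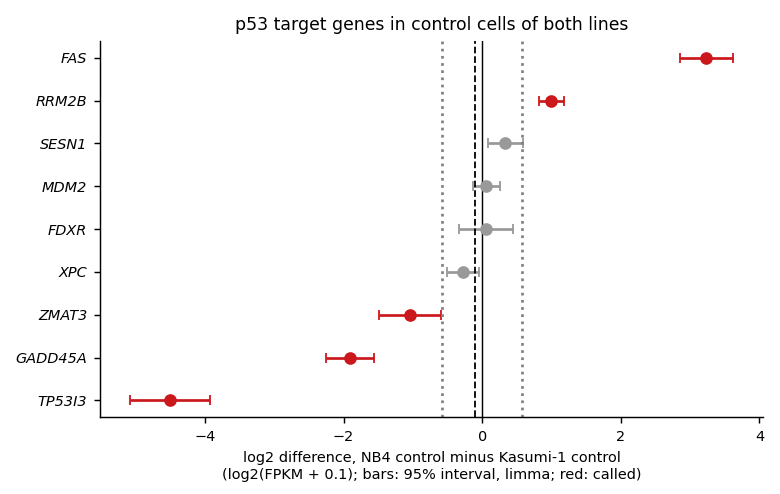
Log2 difference between NB4 and Kasumi-1 controls for the 9 genes, sorted by size (x axis), with 95% intervals from limma; red points passed the threshold, dotted lines mark ±0.58 and the dashed line the median of all genes (−0.10). FAS and RRM2B lie to the right, higher in NB4 cells, and TP53I3, GADD45A and ZMAT3 to the left.

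To see whether OGP46 moved p53 targets in NB4 cells, treated and control samples were compared within the line over 11750 genes. All 8 members that could be tested had a positive log2 fold change, from 0.12 for XPC to 0.66 for GADD45A. A positive value was also found for 81.9% of all genes tested. Without pairing 0 of 8 members passed the threshold. An unadjusted p below 0.05 was reached by 3 of 8 members and by 3422 of the 11750 genes. With the number of the sample as a block, which compares control and OGP46 samples that share a number, 1 of 8 passed, GADD45A. Of all genes tested, 1.45% were higher without the block and 5.06% with it. Most genes in NB4 cells had higher FPKM with OGP46 as deposited, and the median log2 fold change was 0.32 for the members and 0.18 for all genes. Relative to that median 7 of the 8 members were higher. In bulk RNA of this kind, a change in the cells that express a gene and a change in RNA per cell cannot be told apart.

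GADD45A went in NB4 cells from 3.43, 4.13 and 2.82 FPKM in controls 1 to 3 to 5.62, 6.41 and 4.56 FPKM in the OGP46 samples of the same numbers. All OGP46 samples lay above all controls, and samples that were high among the controls were high among the treated ones too, which the plot of same-numbered samples shows as parallel lines. The log2 fold change was 0.66, or 1.59-fold. The SE was 0.17 without the block (adjusted p = 0.0708, not past the threshold) and 0.10 with it (adjusted p = 0.0011). Without pair 3, which holds the control with Kasumi-1 markers, it was 0.66 with the block. Few samples were left there, so the adjusted p (0.000129) rests mostly on the spread of other genes and is no stronger support. Without NB4 control 3 alone, and without the block, it was 0.53 (adjusted p = 0.229, not past the threshold). After median centring, which removes the shift of all genes, it was 0.44 with the block (adjusted p = 0.016) and thereby under the minimum fold change.

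RRM2B and SESN1 were the other members whose OGP46 samples all lay above the controls in NB4 cells. RRM2B went from 8.003, 8.17 and 8.09 FPKM to 10.2, 10.4 and 10.4 FPKM, with little spread in either group. Its log2 fold change of 0.35 ± 0.08 (SE) had an adjusted p of 0.0565, and of 0.0172 with the block, but was smaller than the minimum of 0.58. SESN1 (chr6:108986437-109094819, - strand) went from 5.05, 4.32 and 4.91 FPKM to 6.53, 5.29 and 6.77 FPKM. Sample 2 was the lowest of both groups, and the log2 fold change was 0.37 ± 0.12 (SE, adjusted p = 0.106, and 0.0206 with the block). Thus 3 of 8 members were without overlap between the groups on the higher side, where 32.7% of all genes tested were, and 0 of 8 on the lower side, against 1.91% of all genes.

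The remaining members of NB4 cells had overlapping groups. FAS was at 1.17, 1.00 and 1.00 FPKM in controls and at 1.36, 1.12 and 1.78 FPKM with OGP46, higher in each of the 3 pairs, with a log2 fold change of 0.37 ± 0.18 (SE, adjusted p = 0.208). MDM2, the feedback target, was at 8.20, 7.09 and 7.63 FPKM in controls and at 8.03, 8.60 and 9.95 FPKM with OGP46. It was higher in 2 of the 3 pairs, and its log2 fold change of 0.21 had a 95% interval from −0.04 to 0.46. FDXR was higher in all 3 pairs (0.968 ± 0.179 against 1.20 ± 0.105 FPKM, SD, n = 3), and so was XPC (4.77 ± 0.346 against 5.20 ± 0.251 FPKM; chr3:14145147-14178783, - strand). ZMAT3 was higher in 2 of the 3 pairs. Of all genes tested, 52.9% were higher in all 3 NB4 pairs, as were 6 of the 8 members. The log2 fold changes of these 3 genes were 0.29, 0.12 and 0.20, and those of MDM2, ZMAT3 and XPC turned to −0.01, −0.03 and −0.10 after median centring. TP53I3 was too low in NB4 cells to be tested, with 0.0152 FPKM in OGP46 sample 1 and a listed 0 in OGP46 samples 2 and 3.

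**Figure D3:**
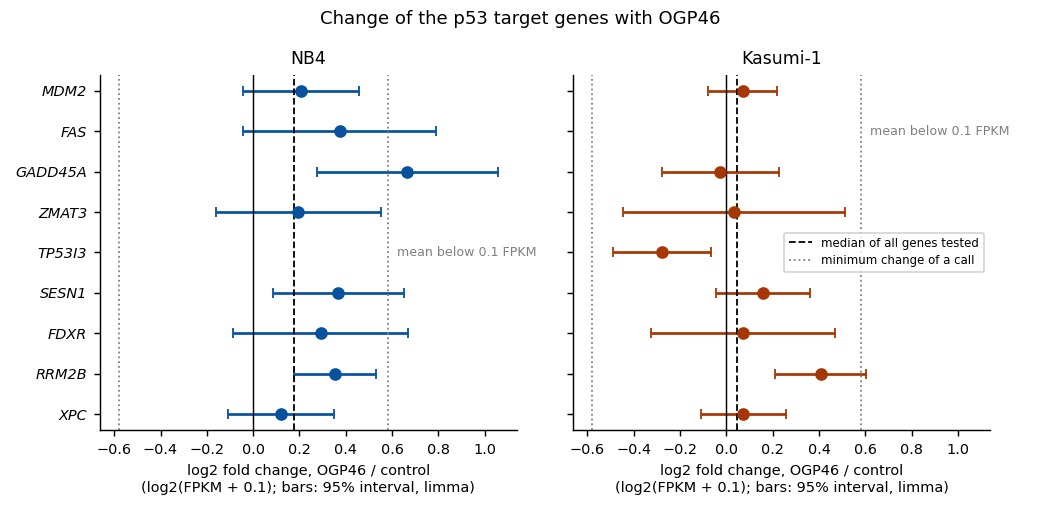
Log2 fold change with OGP46 (x axis, log2(FPKM + 0.1)) of the 9 genes in NB4 cells (left) and Kasumi-1 cells (right), with 95% intervals from limma without the block; the dashed line is the median of all genes tested and the dotted lines mark ±0.58. In NB4 cells all 8 tested genes lie to the right of 0, with GADD45A farthest at 0.66, and in Kasumi-1 cells RRM2B is highest at 0.41 and TP53I3 lowest at −0.28.

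**Figure D4:**
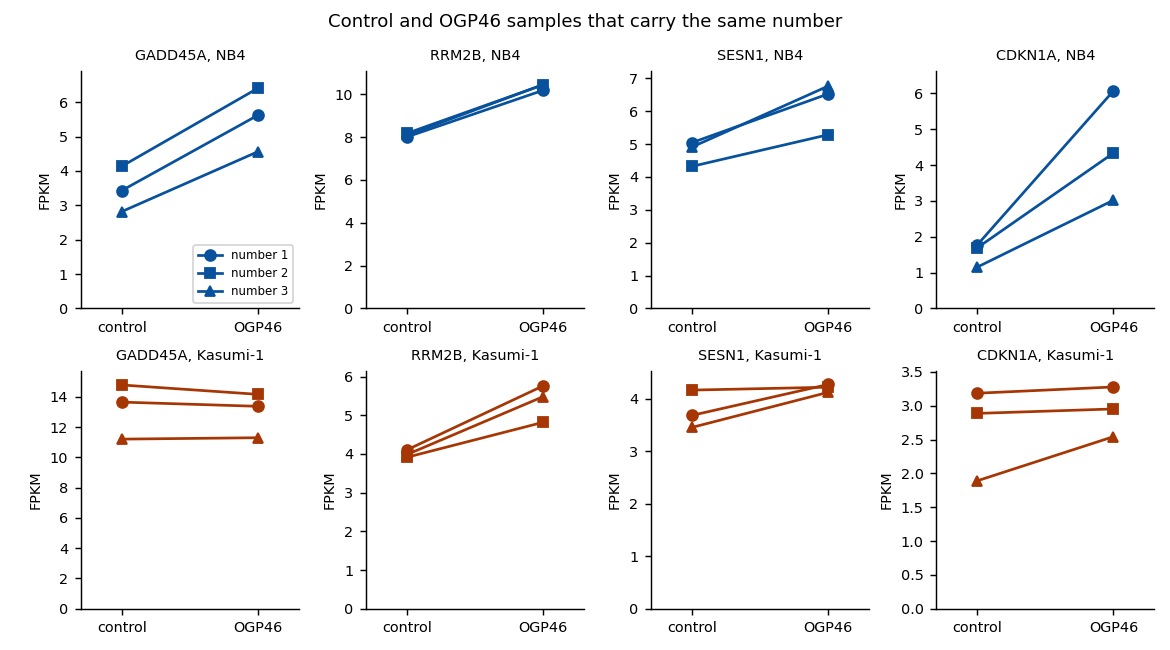
FPKM (y axis, from 0) of GADD45A, RRM2B, SESN1 and CDKN1A in control and OGP46 samples, with a line between samples of the same number, NB4 cells above and Kasumi-1 cells below. GADD45A and CDKN1A are higher with OGP46 in each of the 3 NB4 pairs, while in Kasumi-1 cells the lines of GADD45A are flat, SESN1 and CDKN1A are higher in each pair with groups that overlap, and RRM2B is the one of the 4 whose treated samples all lie above all controls.

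In Kasumi-1 cells given the same 1 μM OGP46, all RRM2B samples again lay above their controls, and GADD45A stayed within the spread of its controls. Of 8 members tested, 0 passed the threshold by limma without or with the block, and 2 had an unadjusted p below 0.05 in each. Of all 11835 genes tested, 1852 had such a p without the block and 2711 with it. Few genes passed at all in this line, 0.0338% of 11835 without the block and 0.617% with it, in either direction. The median log2 fold change was 0.07 for the members and 0.05 for all genes tested.

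RRM2B had the largest log2 fold change of the members tested in Kasumi-1 cells. Its FPKM were 4.11, 3.91 and 3.98 in the Kasumi-1 controls and 5.76, 4.82 and 5.48 with OGP46. All treated samples lay above all controls, as did 17.4% of all genes tested. The log2 fold change was 0.41 ± 0.09 (SE, adjusted p = 0.0931), and with the block the adjusted p was 0.0261, again below the minimum fold change. This value is close to that of NB4 cells, and the difference between the lines was −0.05, with a 95% interval from −0.29 to 0.18.

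TP53I3 was the only member with all treated Kasumi-1 samples under the controls, a pattern that 5.23% of all genes had. It went from 2.85, 2.71 and 2.53 FPKM to 2.28, 2.16 and 2.18 FPKM, a log2 fold change of −0.28 ± 0.10 (SE, adjusted p = 0.211). GADD45A had 13.6, 14.8 and 11.2 FPKM in controls and 13.4, 14.2 and 11.3 FPKM with OGP46, so that same-numbered samples differed by less than samples of one group did. Its log2 fold change was −0.03, with a 95% interval from −0.28 to 0.23. MDM2 was at 7.09, 7.31 and 7.56 FPKM in controls and at 7.49, 7.78 and 7.78 FPKM with OGP46, which makes a log2 fold change of 0.07 with an interval from −0.08 to 0.22. SESN1 differed by 0.16, XPC and FDXR by 0.07 each and ZMAT3 by 0.03, and all of their intervals included 0. FAS was at 0.0300, 0.0497 and 0.0627 FPKM with OGP46, above its controls in every sample, at levels too low to be tested in this line.

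A difference in response between the lines was tested by the interaction term of line and treatment, over 12309 genes. Without the block 0% of all genes passed, although 1348 had an unadjusted p below 0.05, and with the block 1.93% passed. GADD45A was the member with the largest difference, and the log2 fold change in NB4 cells exceeded that in Kasumi-1 cells by 0.69. The SE was 0.22 without the block (adjusted p = 0.293) and 0.10 with it (adjusted p = 0.0131), so that this difference was called only with the block, where it was 1 of 9 members. With the block it was also called after median centring (0.54), TPM scaling (0.55) and quantile normalization (0.50), and without pair 3 of NB4 cells (0.69, adjusted p = 0.0261). Set against the mean of the Kasumi-1 controls, GADD45A of NB4 samples was at 21.3% to 31.3% without OGP46 and at 34.5% to 48.5% with it, so it stayed below Kasumi-1 cells in every sample. SESN1 differed between the lines by 0.21 with an interval from −0.12 to 0.54. FAS and TP53I3 entered this test through 1 line each, and a difference in response cannot be read from them.

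Among the other genes of the p53 network, further targets show where the 9 genes stand. Their list was also chosen with earlier results of these data known, so a share above that of all genes is no test of it. In NB4 cells 20 of 26 further targets could be tested. Of these, 2 were called higher without the block and 8 with it, and none was called lower. Of all genes tested, 1.45% and 5.06% were called higher, and 0.111% and 1.15% lower. With OGP46, 16 of the 20 were higher in all 3 NB4 pairs and 2 were lower, where 6213 and 747 of 11750 genes were. Both genes that passed without the block also passed with it. They were CDKN1A, the cyclin-dependent kinase inhibitor p21, and PERP, a membrane protein of cell adhesion and apoptosis. CDKN1A was at 1.77, 1.69 and 1.15 FPKM in controls and at 6.07, 4.34 and 3.02 FPKM with OGP46, without overlap and higher in each pair. Its log2 fold change was 1.45 ± 0.26 (SE, adjusted p = 0.0364, and 2.57e-05 with the block), above that of each of the 8 members tested. PERP went from 1.86, 1.12 and 1.53 FPKM to 3.55, 3.10 and 3.63 FPKM, also without overlap, a log2 fold change of 1.16 ± 0.18 (SE, adjusted p = 0.0305). Without NB4 control 3, CDKN1A had a log2 fold change of 1.27 (adjusted p = 0.154) and PERP of 1.19 (adjusted p = 0.134), and neither passed. Of the 6 omissions of 1 NB4 sample, 5 left 0 further targets called, and the omission of OGP46 sample 2 left 6. After TPM scaling, median centring or quantile normalization 0 passed without the block, and 7, 5 and 6 with it.

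Log2 fold changes of the 20 further targets tested in NB4 cells ran from −0.18 to 1.58, and 3 were negative. Their median was 0.28, against 0.18 for all genes, and 15 of the 20 lay above the latter. Of these targets, 6 rose with the block alone. They were the antiproliferative gene BTG2 (log2 fold change 1.58), the sestrin SESN2 (1.02), the BH3-only death genes BBC3 (0.85) and PMAIP1 (0.79), the TRAIL receptor TNFRSF10B (0.76) and the apoptosome scaffold APAF1 (0.65). Their adjusted p without the block lay between 0.0659 for PMAIP1 and 0.222 for BTG2. BTG2 was uneven among the pairs, from 1.79 to 8.40 FPKM in pair 1 and from 0.433 to 0.777 FPKM in pair 2, and its groups overlapped. SESN2 resembled SESN1 in direction and was at 4.71, 2.54 and 2.71 FPKM in controls and 8.06, 7.28 and 4.79 FPKM with OGP46. In Kasumi-1 cells 0 of 19 further targets tested passed without or with the block, with 3 and 4 at an unadjusted p below 0.05. Of all 11835 genes tested in this line, 1852 and 2711 had such a p, and 0.0338% and 0.617% passed. All treated Kasumi-1 samples lay above all controls for 2 of the 19, with APAF1 among them, and below all controls for 1. Of all genes tested, 17.4% and 5.23% had these patterns. There CDKN1A was at 3.18, 2.89 and 1.89 FPKM in controls and at 3.28, 2.95 and 2.54 FPKM with OGP46, groups that overlapped, with a log2 fold change of 0.16 ± 0.18 (SE, adjusted p = 0.695).

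In the interaction test over 12309 genes, 1348 had an unadjusted p below 0.05 without the block, and 1.93% passed with it. Of 21 further targets 0 passed without the block, where 6 had such a p, and 4 passed with it. These were CDKN1A (log2 difference 1.29, adjusted p = 0.00958), PERP (1.22, adjusted p = 0.0279), SESN2 (0.95, adjusted p = 0.04997) and TNFRSF10B (0.72, adjusted p = 0.0358), each larger in NB4 cells. PERP did not exceed 0.0267 FPKM in any Kasumi-1 sample and entered this test through NB4 cells alone, so a difference in response cannot be read from it. SESN2 and TNFRSF10B passed in 1 of 27 alternatives each, the block as such, and not once it was joined with another scaling or a pair was left out. CDKN1A passed in 7 of the 27, all of them with the block. Of 16 regulators and partners of p53 tested in NB4 cells, 1 rose without and with the block, where 1.45% and 5.06% of all genes did. It was HIPK2, a kinase that phosphorylates p53, which went from 4.46, 3.79 and 4.72 FPKM to 6.36, 7.26 and 7.13 FPKM. Its groups did not overlap, and the log2 fold change was 0.67 ± 0.11 (SE, adjusted p = 0.0346), or 0.73 without NB4 control 3 (adjusted p = 0.134, not past the threshold). In Kasumi-1 cells 0 of 16 passed, where 0.0338% of all genes did without the block and 0.617% with it. Without the block 2 had an unadjusted p below 0.05, as had 1852 of all 11835 genes tested. HIPK2 was higher in all 3 Kasumi-1 pairs too, with a log2 fold change of 0.35 (adjusted p = 0.448, and 0.137 with the block). The interaction of 17 tested gave none, also with the block.

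**Figure D5:**
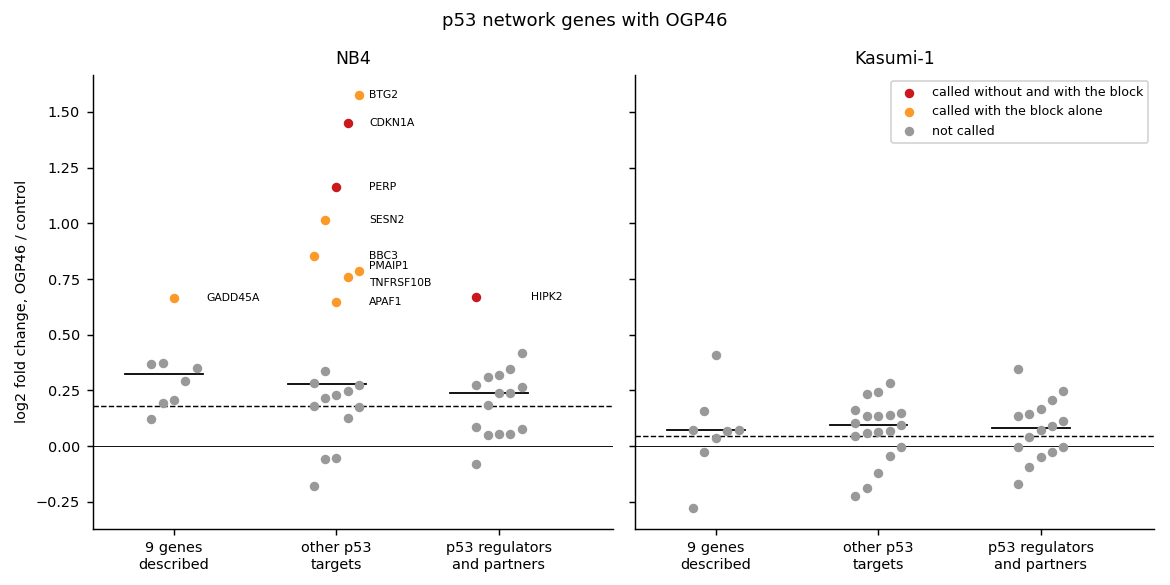
Log2 fold change with OGP46 (y axis) in NB4 cells (left) and Kasumi-1 cells (right) for the 9 genes, the 26 further p53 targets and the p53 regulators and partners that could be tested, 1 point per gene; short lines are medians of a list and the dashed line is the median of all genes. In NB4 cells red points passed without and with the block and orange points with the block alone, led by BTG2 at 1.58 and CDKN1A at 1.45, and in Kasumi-1 cells no point passed.

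The further genes also differed between the control cells, in both directions. Of 21 targets tested 6 were higher and 8 lower in NB4 cells, where 22.7% and 29.7% of all genes were. Higher in NB4 cells were PERP (log2 difference 3.81), BTG2 (2.97) and BBC3 (2.09), PERP and BTG2 from near 0 in Kasumi-1 cells. Lower were TP53INP1, a nuclear and autophagy protein that p53 induces (−4.72), CCNG1, the p53-induced cyclin G1 (−1.48), the polo-like kinases PLK3 (−1.13) and PLK2 (−0.95), the death domain adaptor PIDD1 (−0.92) and CDKN1A (−0.74). TP53INP1 paralleled TP53I3, with no NB4 sample above 0.147 FPKM and Kasumi-1 controls at 5.09, 3.98 and 4.20 FPKM. PLK2 was low in both lines, at no more than 0.250 FPKM in NB4 controls and 0.485 FPKM in Kasumi-1 controls. Its difference was −0.26 with a pseudocount of 1, under the minimum, and it passed in 12 of 14 alternatives. CDKN1A passed in 8 of 15 alternatives only. It fell short of the threshold with a pseudocount of 1, without a filter, under TPM or quantile scaling, and without NB4 control 3 (−0.56, adjusted p = 0.0505), Kasumi-1 control 1 or Kasumi-1 control 2.

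Of 17 regulators tested, 5 were higher and 4 lower in NB4 controls, where 22.7% and 29.7% of all genes were. CDKN2A, which encodes the MDM2 inhibitor ARF beside the kinase inhibitor p16, was at 1.00, 1.28 and 0.538 FPKM in Kasumi-1 controls and at 0, 0 and 0.0125 FPKM in NB4 controls. MDM4, the partner of MDM2 that blocks p53 activity, was at 4.92, 4.71 and 5.39 FPKM in Kasumi-1 controls and at 2.46, 1.58 and 2.01 FPKM in NB4 controls, a log2 difference of −1.29 ± 0.16 (SE, adjusted p = 6.65e-05), whereas MDM2 itself did not pass the same test. RPL5 (−1.11) and RPL11 (−1.09), ribosomal proteins that can bind MDM2, were also lower in NB4 cells. The size varied over 15 alternatives, from −1.15 to −0.46 for RPL5 and from −1.14 to −0.59 for RPL11. RPL5 passed in 14 of them and RPL11 in 15. HIPK2 (2.23), the p53-binding protein TP53BP1 (1.29) and the acetyltransferase CREBBP (1.03) were higher. TP73, the p53 relative, was listed at 0 in every Kasumi-1 sample and lay between 0.245 and 0.313 FPKM in NB4 controls.

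Across the 12 samples, with the mean of each line subtracted, the genes whose log2 level was most like that of GADD45A were GCH1 (Pearson r = 0.978), MYO1G (0.974) and STK17A (0.969), among the 9943 genes at a mean of 1 FPKM or more. The points share libraries and the treatment, so these values describe likeness only. The 7 other members at that level, which FAS did not reach, had r between −0.47 for TP53I3 and 0.46 for SESN1, and MDM2 had 0.26. TP53I3 did not exceed 0.0881 FPKM in any NB4 sample, so its r rests partly on values near 0. MYO1G, an unconventional myosin of blood cells, went from a mean of 16.5 to 28.4 FPKM with OGP46 in NB4 cells and from 24.3 to 23.5 FPKM in Kasumi-1 cells.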

How the data were processed

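mRNA-seq of NB4 and Kasumi-1 cells gave 12 samples, grouped by the labels as control or OGP46 (1 μM) with n = 3. Poly(A) mRNA was selected, and libraries were made with a stranded kit. The authors deposited FPKM per gene symbol and sample. The submitters' processing notes name Trimmomatic, HISAT2, Cufflinks, HTSeq and hg38, and the annotation is not given in the sources used here. The files hold no comparisons of the authors. Of the symbols, 27 had become dates and were left out, which kept 20003. The depth is unknown, and precision rests on 3 samples.

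log2(FPKM + 0.1) was compared by limma 3.58.1 in R 4.3.3 (empirical Bayes with a mean-variance trend) over genes at a mean of 0.1 FPKM or more in the fit, without further scaling. Adjusted p-values are Benjamini-Hochberg over all genes tested. Calls required an adjusted p under 0.05 and an absolute log2 fold change of 0.58 or more, or for the interaction the p alone. The scripts were tested on simulated data.

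The study names no pairing, so tests without it come first. The labels number the samples 1 to 3. Deviations of same-numbered control and OGP46 samples from their group means correlated across genes in every pair, with Pearson r of 0.355, 0.622 and 0.197 over 11750 genes in NB4 cells and 0.218, 0.157 and 0.395 over 11835 genes in Kasumi-1 cells, all above 0.1. The highest r of each control with a differently numbered OGP46 sample was lower, at 0.224, −0.34 and 0.175 in NB4 cells and 0.101, 0.0275 and −0.217 in Kasumi-1 cells. The numbers were therefore treated as pairs, which no label states, and the replicate number was the block. For NB4 control 3 the margin was small (0.197 against 0.175). This pairing was inferred from the same values that the block then tests, so calls made only with the block depend on it. Genes are not independent replicates.

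The 9 members and the lists of 26 further targets and 19 regulators, of which 18 were in the data, were chosen with earlier results of these data known. Of both lists, each gene past the threshold without or with the block is named, at most 8 per list and comparison by size, and CDKN1A always. The 3 genes most like a called member follow from line-centred correlation. One gene that falls under this rule is not reported here. Gene positions are those of GENCODE release 29 and sequences those of RefSeq. Alternatives were pseudocounts of 1 and 0.01, no filter, a filter at 1 FPKM, median centring, TPM or quantile scaling, no trend, a joint model, the block and leaving out each sample.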

Additional observations from a re-analysis of the deposited data

Results flagged for a closer look

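The response to OGP46 differed between the lines for 5 genes of the p53 network by the interaction test with the replicate block, and for none of them at the same settings without it. Of all genes tested, 1.93% passed with the block. The member GADD45A had a log2 fold change that was 0.69 larger in NB4 than in Kasumi-1 cells. CDKN1A differed by 1.29, PERP by 1.22, SESN2 by 0.95 and TNFRSF10B by 0.72 in the same direction. PERP was near 0 in Kasumi-1 cells and entered through NB4 cells alone, so a difference in response cannot be read from it. SESN2 and TNFRSF10B passed in 1 of 27 alternatives each. The groups of 3 samples were too small for a test of single outlying samples.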

How the results depend on the processing

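In NB4 cells the number of members called higher was 0 without the block and 1 (GADD45A) with it, 1 with the joint model of the 12 samples, and 1 with the block and pair 1, 2 or 3 left out, but 0 with the block and median centring, TPM scaling or quantile normalization. Leaving out 1 sample gave 0 each time. For the difference between the lines it was 1 (GADD45A) with the replicate block, as also with the block and each of these scalings or with a pair left out, and 0 otherwise. Between the controls, 1 member instead of 2 was higher at a minimum mean of 1 FPKM, as FAS then left the test. The block changed no other call of a member. The log2 fold change of GADD45A in NB4 cells lay between 0.44 and 0.80 over 22 alternatives and kept its sign in all. The NB4 values of MDM2, ZMAT3 and XPC turned to −0.013, −0.025 and −0.098 under median centring without or with the replicate block, and XPC to −0.0021 with TPM scaling and −0.092 with quantile normalization, again without or with the block. In Kasumi-1 cells ZMAT3 turned to −0.032 under median centring, with the replicate block too, and to −0.024 with quantile normalization. With 1 sample left out, the Kasumi-1 values ran from −0.14 to 0.068 for GADD45A, −0.18 to 0.24 for ZMAT3, −0.075 to 0.23 for FDXR and −0.058 to 0.30 for CDKN1A, and the control difference of FDXR from −0.077 to 0.15. None of these was called.

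Of the further targets, 2 were called in NB4 cells, against 6 in the joint model, 8 with the block, 5, 7 and 6 with the block and median centring, TPM or quantile scaling, and 0 without a filter, without a trend or under these scalings alone. HIPK2 was lost under the same settings as those with 0, with a pseudocount of 1, and with the block and a scaling or without pair 2. Leaving out 1 NB4 sample gave 0 further targets and no call of HIPK2, except 6 and HIPK2 without OGP46 sample 2. For the difference between the lines 0 further targets became 4 with the block, 2, 1 and 1 with the block and those scalings, 2, 1 and 1 without pair 1, 2 or 3, and 1 with a pseudocount of 1. Over all genes, 0 to 708 were called higher in NB4 cells. The block with TPM or quantile scaling and the omission of pairs were chosen after seeing the data, and NB4 fits without a pair hold few samples. Depth is unknown, so levels near 0 FPKM (FAS in Kasumi-1, TP53I3 in NB4 cells) have no detection limit.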
